A study of Arabidopsis thaliana with 9 samples.

Results

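Pericentromeres are the repeat-rich stretches of chromosome that flank each centromere, and this account describes the small RNA clusters of Arabidopsis pericentromeres whose most abundant RNA is 24 nt long. A cluster is a stretch of the genome where small RNA reads pile up. A cluster was a member when its most abundant RNA was exactly 24 nt long and its midpoint lay in a window of 11.5 to 17.7 Mb on chromosome 1, 1.1 to 7.2 Mb on chromosome 2, 10.3 to 17.3 Mb on chromosome 3, 1.5 to 6.3 Mb on chromosome 4 or 9 to 16 Mb on chromosome 5. The rule found 8525 members among the 33171 features measured, of which 28897 are clusters on the 5 nuclear chromosomes. RNA length is a measured value, so the length of the leading RNA and the position describe how members were chosen and are not results. Members made up 58.7% of the 14533 nuclear clusters led by a 24-nt RNA, and the other 6008 such clusters, outside the windows, are the set they are compared with here.

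Small RNA-seq was carried out on shoots of wild type Col-0, the reference accession, with 3 biological replicates in each of 3 conditions. All plants spent 14 days on 1/2X MS with iron, 3 days on a second medium and 24 hours on a last one. In +Fe plants the later media also held iron, in -Fe plants both lacked it, and in Fe resupply plants the 3 days were without iron and the 24 hours with it. All groups were thus moved the same number of times, and the comparisons ask which small RNAs respond to iron loss and to a brief return of iron. The labels call the second medium MS, where the methods give 1/2X MS. Whole shoots were sampled, so a change in the number of cells of a type and a change in RNA per cell cannot be told apart.

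In plants, RNA polymerase IV transcribes silenced repeats, RDR2 makes the transcripts double-stranded and DCL3 cuts them into 24-nt small interfering RNAs (siRNAs). AGO4 and its relatives bind these siRNAs, with a preference for a 5′ adenine, and guide DNA methylation to matching loci (RNA-directed DNA methylation). Pericentromeres of the Arabidopsis genome are rich in transposons.

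The leading RNAs of the clusters with the highest levels come first, because these clusters are the most abundant. They are written 5′ to 3′ as deposited, with the 5′ base, which AGO proteins read, in capitals. Positions are those of the cluster on TAIR10, with the strand of the RNA.
Cluster_18361, chr5:11187957-11189047, + strand: Gugauuugggcuauauuacggacc
Cluster_14128, chr3:15628039-15643380, - strand: Accuucggucucaucuugaacaug
Cluster_5922, chr2:2602282-2608711, - strand: Aaugacguggcaagugcugauggu
Cluster_1185, chr4:3054302-3055271, + strand: Uuuucgugauuugugcuauauuac
Cluster_796, chr4:2070050-2077724, - strand: Gaagucgaacuccaggaugagugg
Cluster_1189, chr4:3061050-3061826, + strand: Aguacuuuuucgggcauuuucgug
Cluster_26089, chr1:16354319-16360196, - strand: Ugugucuuaguuccuucagaacau
The first 6 are the highest of all members, and Cluster_26089 is the highest of the chromosome 1 window.

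Further RNAs are shown because each leads many members at once. They are the 3 that led the most members.
Shared RNA 1, 15 members: Aauaggaacauguaauuggaaacu
Shared RNA 2, 13 members: Aaacgccuucugagcgcuggacgu
Shared RNA 3, 13 members: Aggacguuucuggacuguuucaga

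The last set holds the RNAs of the 13 members that passed the test in at least 1 comparison of conditions, on which the results by condition turn.
Cluster_2311, chr4:5851615-5851883, - strand: Aggauguugaaacuuuuggauggu
Cluster_24675, chr1:12561459-12562543, - strand: Agaagggagaaaacgaaggagaug
Cluster_14320, chr3:16111754-16112133, - strand: Uuuaggcauggaaauuguuugggc
Cluster_12393, chr3:11508920-11509816, - strand: Aaugggacaauaauagagauaagg
Cluster_5225, chr2:1178611-1179356, + strand: Guuacaucgucucguuggaauacg
Cluster_25292, chr1:13931737-13932611, + strand: Auggucgaucucacgcgcuaacug
Cluster_13599, chr3:14314550-14316200, + strand: Ucaagauuugugcauucuaaacac
Cluster_14360, chr3:16238346-16238494, + strand: Guugacugcagugacaucuggguu
Cluster_7774, chr2:7183585-7184025, - strand: Aauuacauccgacucguaacacga
Cluster_12032, chr3:10690403-10692298, - strand: Aggacaauggauaucaucuacgag
Cluster_17538, chr5:9114793-9115295, - strand: Augagauaacuuugaacgaugaca
Cluster_6516, chr2:4106799-4108290, - strand: Gcugcgucugcuuuugucuugagc
Cluster_1574, chr4:4104731-4105382, - strand: Cuagauuaggaagauucuuugacu
Of these RNAs, 7 begin with adenine.

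Members were dense along every window. They numbered 1574, 1794, 1920, 1397 and 1840 on chromosomes 1 to 5, or 274 per Mb over 31.1 Mb of windows. Outside the windows, 24-nt-led clusters numbered 68.2 per Mb over 88.0 Mb. Member intervals covered between 25.6% of the chromosome 1 window and 33.0% of the chromosome 4 window. By 1-Mb bins, the windows held from 141 to 341 such clusters, and the bin just past the middle of the chromosome 1 window, with 163, lay below its neighbours at 338 and 302. The highest bin with its centre outside held 223 and straddled the upper edge of the chromosome 4 window. Within the windows, 12291 clusters of any length were found, of which members were 69.4%, 1770 were led by a 23-nt RNA and 652 by a 22-nt RNA.

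**Figure D1:**
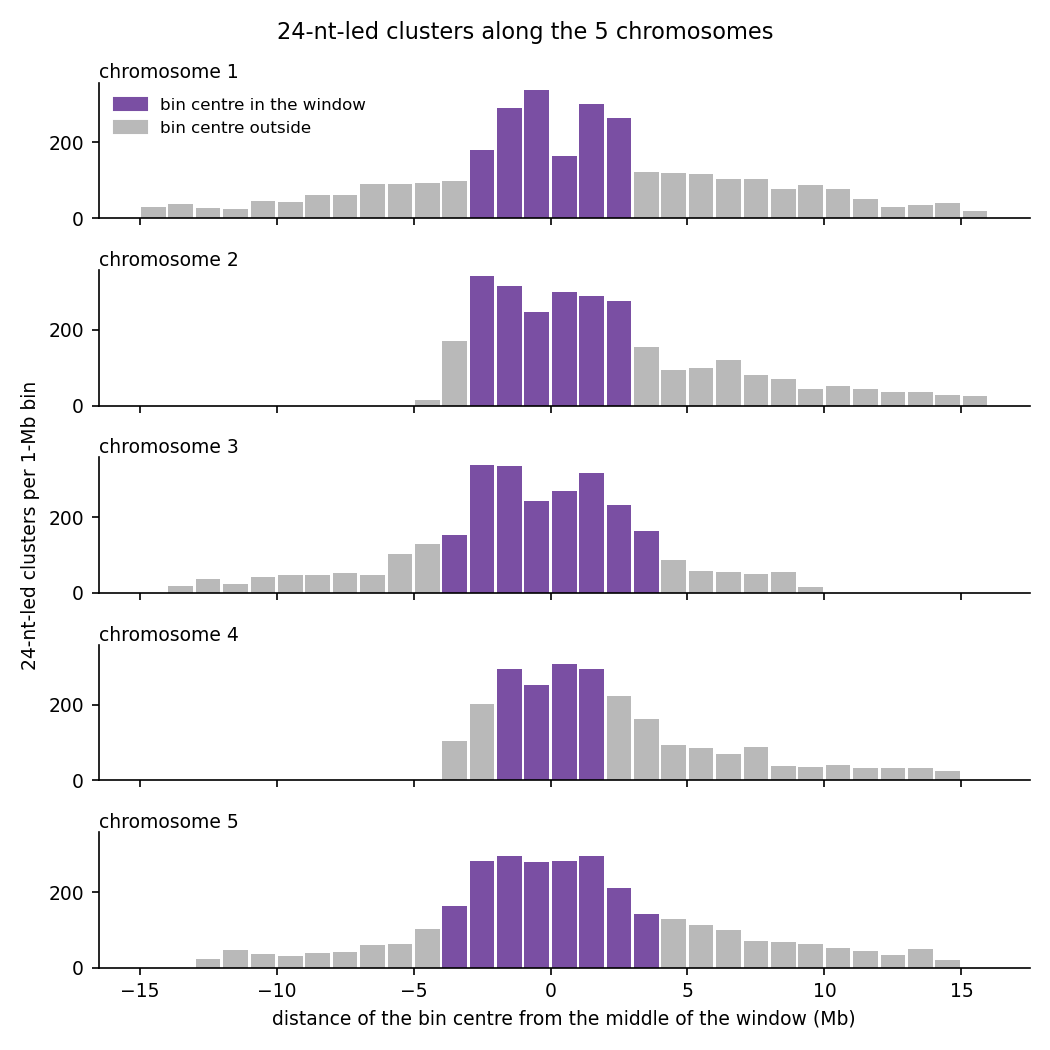
Number of 24-nt-led clusters in 1-Mb bins along the 5 chromosomes, against the distance of the bin centre from the middle of the window in Mb; purple bins have their centre in a window, grey bins lie outside, and bins at chromosome ends are shorter. Purple bins hold from 141 to 341 clusters and the highest grey bin holds 223.

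At the window edges the level did not mark a border. The 10 members nearest an edge on the inner side had log2 levels from 2.46 to 8.35, and the nearest 24-nt-led clusters on the outer side had levels from 3.65 to 8.87. On chromosome 3, the member Cluster_14688 and the cluster Cluster_14689 lay 54 and 440 nt on either side of the upper edge, with log2 levels of 2.46 and 4.38.

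Adenine led most members, as it does in siRNAs bound by AGO4. The first base was adenine in 6411 members (75.2%), guanine in 912, uracil in 809 and cytosine in 393. In the windows themselves adenine is 32.0% of bases over both strands. Outside the windows 72.8% of 24-nt-led clusters began with adenine. Among clusters of the same windows led by RNAs of other lengths, the share was 41.1% for 23 nt, 45.9% for 22 nt and 53.3% for 21 nt (317 clusters). At the second base of members adenine stood at 36.1%, and at the last base uracil and cytosine stood at 37.0% and 33.0%. The genomic base before the RNA was thymine in 45.8% and cytosine in 28.3% of the 8441 members whose RNA was found in its own interval. These shares are descriptions without a test.

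**Figure D2:**
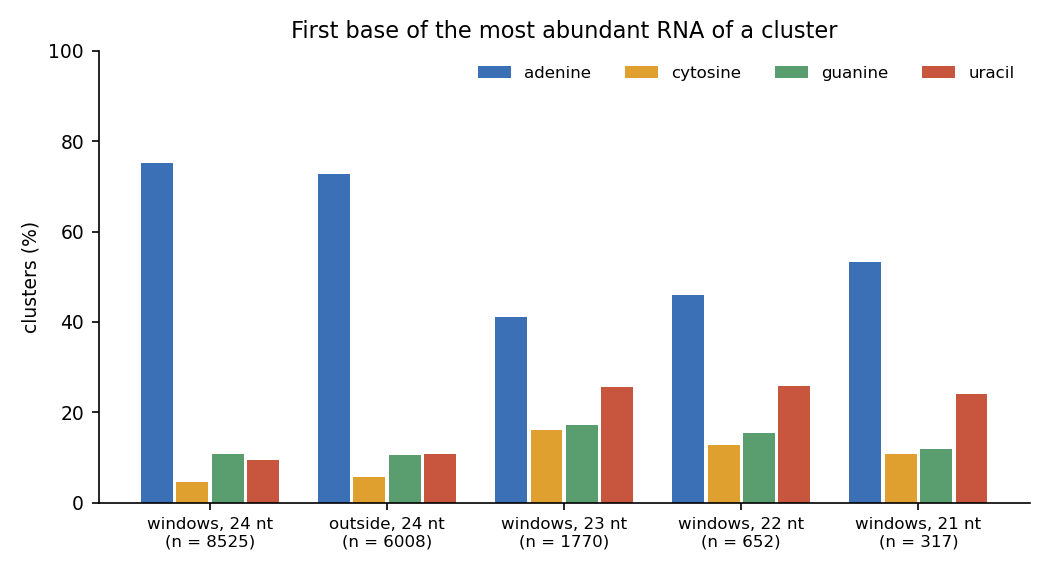
Share of clusters, in percent, whose most abundant RNA begins with each base, for 24-nt-led clusters in and outside the windows and for clusters of the windows led by 23-, 22- and 21-nt RNAs, with the number of clusters under each group. Adenine stands at 75.2% and 72.8% in the 24-nt-led groups and between 41.1% and 53.3% in the other groups.

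Most leading RNAs were specific to one place. Of the 8525, 5220 (61.2%) had a single exact copy in the genome, against 72.1% of the 24-nt-led clusters outside the windows. For 845 members the RNA had over 10 copies, and for 84 no exact copy was found. RNAs came from the + strand in 4253 members and from the - strand in 4188. The share with a single copy was lowest near the middle of the windows, at 49.5% of the 2683 members within 1 Mb, and stood at 64.4%, 68.8% and 69.6% in the next 3 bins of 1 Mb outward. The median log2 level followed the same order, at 3.43 within 1 Mb of the middle and at 4.05, 4.58 and 4.86 further out. The GC content of the intervals went the other way, with a median of 39.2% within 1 Mb and 31.9% in the outermost bin.

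Leading RNAs were shared by 1243 members, which used 466 sequences between them, and the whole set used 7748. Shared RNA 1 led members on all 5 chromosomes, 7 of them on chromosome 3 and 4 on chromosome 4. Its exact copies numbered 25, and it also led 7 clusters outside the windows. Members led by it ran from a log2 level of 5.56 at Cluster_13737 to 7.71 at Cluster_5650, although they share a sequence, and 10 of the 15 overlapped no annotated gene. Shared RNA 2 had 30 exact copies and led members from 2.66 at Cluster_18576 to 6.38 at Cluster_1952, whose interval overlaps the pseudogenes AT4G08114 and AT4G08115. Shared RNA 3 had 40 exact copies and led members from 2.58 at Cluster_25139 to 8.14 at Cluster_19321. Reads with several matches can be placed at any copy, so the level of each such member is uncertain. None of these 41 members passed the test in any comparison, and the sets had median log2 fold changes of -0.064, 0.040 and -0.041 in -Fe against +Fe.

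For annotation, each member was counted once, at the first match in a fixed order. The order was transposable element gene, rRNA, tRNA, protein-coding gene, pseudogene and other RNA gene. By this count 3987 members (46.8%) overlapped no annotated gene, 3316 (38.9%) fell to pseudogenes and 1002 (11.8%) to protein-coding genes. Outside the windows these shares were 55.7%, 10.2% and 29.9%. Members that overlap both kinds of gene, such as Cluster_5922, are counted at protein-coding genes only, so the pseudogene shares understate the overlap with pseudogenes. Genes whose annotation names a transposable element were overlapped by 46 members (0.540%), and no member overlapped an annotated rRNA gene. Transposable elements were recognised only by words in the note or product of a gene. The pseudogenes AT4G06477 and AT3G43726 have no note and the product "uncharacterized protein", so a transposon listed in this way would not be recognised. These counts thus do not measure the transposon content of the windows, or how many of the pseudogenes are transposons. How many rRNA genes the reference lists in the windows is not given here, so the absence of overlap does not show that members lie away from rRNA repeats. Members counted at pseudogenes were wide, with a median of 1032 nt against 538 nt for those at no gene. Their levels were lower, with medians of 3.76 against 4.00. At tRNA genes, whose products decode codons in translation, lay 5 members. Their median log2 level was 7.91, none was led by adenine and none of their RNAs had a single copy.

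Level is the deposited log2 normalized value, the level of a cluster is the mean of its log2 values over the 9 libraries, and sums over members were taken on the back-transformed scale. The median log2 level of members over all libraries was 3.99, with 4.94 for 24-nt-led clusters outside. Members were wider, with a median of 742 nt (from 34 to 16263 nt) against 471 nt. Reads were unevenly spread, since 665 members (7.80%) held 50% of the summed level, the 100 highest held 20.1% and the 10 highest 6.33%. The widest 2128 members held 48.5% of it.

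Cluster_18361 had the highest level, at 12.39, 12.33 and 12.21 in the 3 +Fe libraries, 12.32, 12.14 and 12.26 in -Fe and 12.24, 12.46 and 12.52 in Fe resupply. The 3 conditions overlapped in this cluster. It lies 1367 nt from AT5G29560, which encodes a caleosin-related protein, and overlaps no annotated gene. Its RNA had 38 exact copies, all on chromosome 5 and in the windows, of which the interval itself held 2 that lay 502 nt apart. Cluster_1185 on chromosome 4 was built alike, with 14 exact copies on that chromosome, 2 of them in its own interval 498 nt apart. Its levels were 11.54, 11.59 and 11.43 in +Fe, 11.55, 11.43 and 11.55 in -Fe and 11.72, 11.82 and 11.76 in Fe resupply. The Fe resupply libraries lay above the other 6, by 0.24 on average against +Fe and 0.25 against -Fe, with adjusted p = 0.577 and 0.224 from limma, so neither difference passed the test. Cluster_1189 overlaps the pseudogene AT4G06477 nearby, and its RNA lies in an exon of it and has 21 exact copies. Its Fe resupply libraries, from 11.08 to 11.25, also lay above the other 6, from 10.96 to 11.07, with a log2 difference of 0.17 against +Fe (adjusted p = 0.764 from limma). Most of the Cluster_18361 RNA recurs in that of Cluster_1185, with a mismatch, so those 2 clusters need not be independent cases. Reads of all 3 clusters can be placed at any copy of their RNAs, so their levels are uncertain.

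The other high clusters were long and led by an RNA with a single copy. Cluster_14128 spans 15342 nt at the pseudogenes AT3G43726 and AT3G43730 and stood at 11.89, 11.97 and 12.01 in +Fe, 11.81, 11.88 and 11.71 in -Fe and 11.95, 12.08 and 11.89 in Fe resupply. All -Fe libraries lay below all +Fe libraries, by 0.16 (adjusted p = 0.689 from limma). Cluster_5922, at AT2G06550 and AT2G06555, ranged from 11.49 to 11.80 over the 9 libraries. Cluster_796 ranged from 10.98 to 11.30, and Cluster_26089, the highest of the chromosome 1 window, from 10.01 to 10.31. The widest member, Cluster_14107, spans 16263 nt at 6 annotated genes and ranged only from 8.06 to 8.26. None of these clusters passed the test in any comparison.

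Fe resupply replicate 2 stood apart from the other libraries before any comparison. Members summed to a log2 level of 18.76 in it, the highest of all, while all features together summed to 8503760 on the back-transformed scale, the lowest of a range that reached 9831410. Members took 6.92% of the nuclear total there and between 5.54% and 6.08% in the other libraries. The summed differences, the median fold changes on resupply and the counts of members that passed are therefore also given without it. Sequencing depth is unknown.

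The summed level of the members differed little between conditions. In +Fe it was 18.66, 18.67 and 18.67, in -Fe 18.63, 18.63 and 18.62, and in Fe resupply 18.64, 18.76 and 18.68, all as log2. The -Fe libraries lay below the +Fe and Fe resupply libraries without overlap, by 0.042 on average against +Fe (18.63 ± 0.007 and 18.67 ± 0.006, SD, n = 3 each). The 24-nt-led clusters outside the windows summed to 18.74, 18.71 and 18.71 in +Fe, 18.68, 18.65 and 18.67 in -Fe and 18.67, 18.79 and 18.74 in Fe resupply. There too -Fe lay below +Fe, but Fe resupply replicate 1 was among the -Fe libraries. The difference between members and the outside set stayed between -0.078 and -0.016 in every library. Fe resupply exceeded +Fe by 0.022 in the sum of members, and without Fe resupply replicate 2 the difference was -0.011. Fe resupply exceeded -Fe by 0.064, or by 0.032 without that library. As a share of the nuclear total, members took 5.99% in +Fe, 5.64% in -Fe and 6.25% in Fe resupply on average. The 3 Fe resupply libraries stood at 5.74%, 6.92% and 6.07%, and only replicate 2 lay above all +Fe libraries (5.81% to 6.08%). The higher mean of Fe resupply thus rests on replicate 2. The values are relative to a normalization across features and give no absolute amount.

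**Figure D3:**
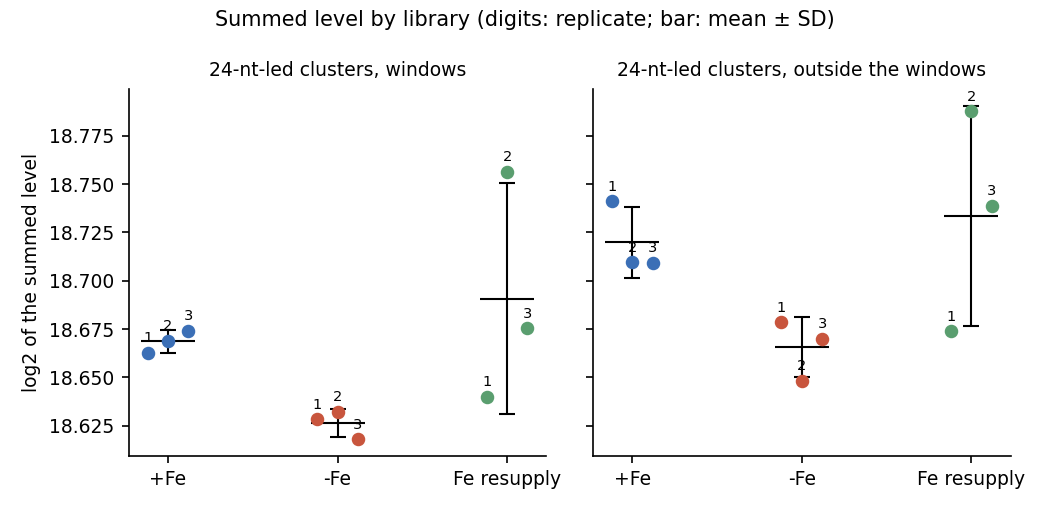
Log2 of the summed back-transformed level of 24-nt-led clusters in the windows (left) and outside (right) for each of the 9 libraries, labelled by replicate, with the mean and SD of each condition in black; the vertical axis does not start at 0. The -Fe libraries lie between 18.62 and 18.63 in the windows and Fe resupply replicate 2 is the highest library in both panels.

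For single clusters, a member passed when limma gave an adjusted p (FDR) under 0.1 over all 33159 features tested and the log2 fold change reached 0.5 in either direction. All 8525 members were tested. The FDR limit holds for all features together, so the share of false calls among members alone is not known and can be higher. In -Fe against +Fe, 11 members passed (0.129%), against 0.504% of all features and 43 of the 6008 clusters of the outside set. Of these members, 3 were higher in -Fe, where 0.268% of all features were, and 8 were lower, where 0.235% of all features were. At an unadjusted p under 0.05 there were 402 members (4.72%), against 8.02% of all features and 8.07% of the outside set. The 3 -Fe libraries lay above the 3 +Fe libraries in 339 members (3.98%, against 7.15% of all features) and below them in 602 (7.06%, against 6.41%). The median log2 fold change of members was -0.016, that of all features -0.0015 and that of the outside set -0.025, and 90% of members lay between -0.18 and 0.14. The count of 11 rested on single libraries. It was 31 without +Fe replicate 1, 5 without +Fe replicate 3, 4 without -Fe replicate 1, 25 without -Fe replicate 2, 3 without -Fe replicate 3 and 28 without Fe resupply replicate 2. The shares of all features in fits with a library left out are not given, here or below.

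**Figure D4:**
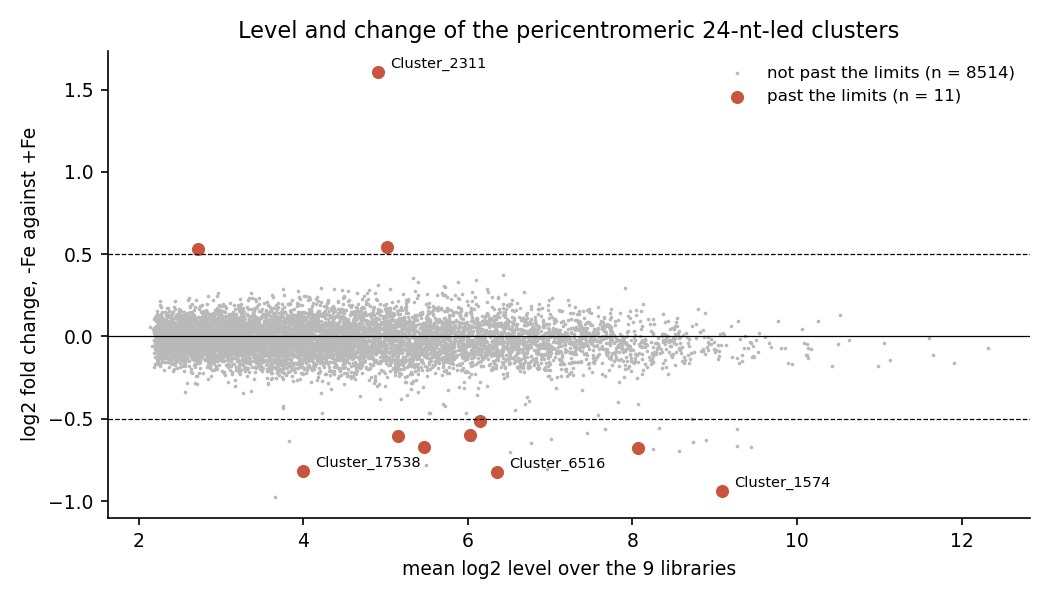
Log2 fold change in -Fe against +Fe of each of the 8525 members against its mean log2 level over the 9 libraries, with dashed lines at the fold limit of 0.5. The 11 members past both limits are in red, with Cluster_2311 at 1.61 alone at the top and most falls at middle to high levels.

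Cluster_2311 rose the most. It stood at 4.07, 4.63 and 4.06 in +Fe, at 5.82, 5.83 and 5.93 in -Fe and at 4.03, 3.94 and 5.86 in Fe resupply. Values in -Fe lay above all +Fe values, and in Fe resupply replicate 3 the cluster was as high as in -Fe while the other 2 Fe resupply libraries were as low as +Fe. The log2 fold change in -Fe against +Fe was 1.61 (standard error 0.30, adjusted p = 0.0147 from limma). The cluster passed under each of the 16 alternatives that could be run. Its interval of 269 nt overlaps no annotated gene and lies 416 nt from AT4G05700, a long noncoding RNA, and 1852 nt from FBH2 (AT4G09180), a bHLH transcription factor known as an activator of the flowering gene CONSTANS. Its RNA has a single copy in the genome.

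The members whose values followed those of Cluster_2311 most closely over the 9 libraries were Cluster_12915, Cluster_5775 and Cluster_1934, with Pearson's r of 0.88 each, given as a description of points that share libraries. None of them passed, and their log2 fold changes in -Fe against +Fe were 0.20, 0.28 and 0.15.

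Cluster_24675 and Cluster_14320 were the other members that rose. Cluster_24675 stood at 4.67, 4.71 and 4.68 in +Fe, 5.37, 5.03 and 5.29 in -Fe and 5.16, 4.95 and 5.34 in Fe resupply. Its Fe resupply libraries overlapped those of -Fe and lay above those of +Fe. The log2 fold change in -Fe against +Fe was 0.54 (standard error 0.11, adjusted p = 0.0235 from limma), and the call was lost without -Fe replicate 1 or 3. The cluster lies 144 nt from AT1G34392, a noncoding RNA gene, and 2377 nt from ARF22 (AT1G34390), an auxin response factor. Cluster_14320 had low levels of 2.51, 2.54 and 2.45 in +Fe, 2.90, 2.95 and 3.24 in -Fe and 2.84, 2.57 and 2.51 in Fe resupply. The -Fe values lay above all others, with a log2 fold change of 0.53 against +Fe (standard error 0.10, adjusted p = 0.0111 from limma). That call was lost without -Fe replicate 3, under which the change was 0.43, and with a pseudocount of 1, under which it was 0.46. It lies 438 nt from AT3G44510, an alpha/beta-hydrolase gene.

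Among the 8 members that fell, Cluster_17538 had the smallest adjusted p. Its levels were 4.34, 4.43 and 4.52 in +Fe, 3.53, 3.76 and 3.54 in -Fe and 3.95, 3.71 and 4.20 in Fe resupply. It fell by 0.82 on the log2 scale (standard error 0.11, adjusted p = 0.000667 from limma) and passed under each of its 16 alternatives. Fe resupply values lay below +Fe and partly among those of -Fe. It overlaps no annotated gene and lies 1255 nt from AT5G26090, a self-incompatibility protein S1 family gene. Cluster_14360, with an interval of only 149 nt, was the other fall that passed under each alternative that could be run. It stood at 5.65, 5.51 and 5.46 in +Fe, 4.99, 4.94 and 4.89 in -Fe and 4.97, 4.72 and 5.24 in Fe resupply. Both -Fe and Fe resupply lay below +Fe without overlap. It fell by 0.60 in -Fe against +Fe (standard error 0.11, adjusted p = 0.0143 from limma), and 553 nt away lies AT3G44700.

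Of the falls that passed, that of Cluster_1574 was the largest, and it is also the most abundant member that passed. It stood at 9.21, 9.50 and 9.95 in +Fe, 8.38, 9.02 and 8.44 in -Fe and 8.78, 9.77 and 8.76 in Fe resupply. Libraries of +Fe and -Fe did not overlap, though +Fe replicate 1 and -Fe replicate 2 differed by less than the +Fe libraries did among themselves. The fall of 0.94 on the log2 scale had a standard error of 0.22 (adjusted p = 0.0567 from limma). Cluster_1574 overlaps no annotated gene, lies 1160 nt from the pseudogene AT4G07031, and lost its call without +Fe replicate 2 or 3 and without -Fe replicate 1 or 3. Cluster_6516 fell by 0.82, from 6.51, 6.80 and 7.05 in +Fe to 5.80, 6.27 and 5.81 in -Fe (adjusted p = 0.0227 from limma). Its Fe resupply levels of 5.99, 6.75 and 6.18 lay between the extremes of both groups. Cluster_12032 overlaps AT3G28530, annotated as a UDP-glucose 4-epimerase, with its RNA outside the gene. It fell by 0.68, from 8.20, 8.32 and 8.66 in +Fe to 7.61, 8.09 and 7.44 in -Fe (adjusted p = 0.0887 from limma), with 7.89, 8.53 and 7.83 in Fe resupply.

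Cluster_7774, 397 nt from the SAUR-like auxin response gene AT2G16580, fell by 0.67, from 5.61, 5.65 and 6.08 in +Fe to 4.99, 5.29 and 5.06 in -Fe (adjusted p = 0.0683 from limma), with 5.16, 5.97 and 5.41 in Fe resupply. Cluster_13599 lies at AT3G42160, a pectin lyase-like gene, with its RNA within the gene outside annotated exons. It fell by 0.60, from 6.17, 6.29 and 6.59 in +Fe to 5.59, 5.93 and 5.73 in -Fe (adjusted p = 0.0358 from limma), with 5.80, 6.28 and 5.92 in Fe resupply. Cluster_25292 overlaps the pseudogene AT1G36775, with its RNA in an exon, and fell by 0.51, from 6.35, 6.30 and 6.60 in +Fe to 5.96, 5.96 and 5.78 in -Fe (adjusted p = 0.0625 from limma), with 6.04, 6.42 and 5.93 in Fe resupply. In each of these 3 clusters the +Fe and -Fe libraries did not overlap, and +Fe replicate 3 was the highest of all. Without +Fe replicate 3 the calls of Cluster_7774, Cluster_13599, Cluster_25292, Cluster_12032, Cluster_6516 and Cluster_1574 were lost, as they were without -Fe replicate 1 or without -Fe replicate 3.

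Across the 9 libraries the 8 falls had pairwise Pearson's r from 0.35 to 0.99, with a median of 0.92. Part of this likeness is set by their choice on the same contrast, and the lowest values were those of Cluster_14360. Relative to the mean of each over the 9 libraries, the 8 falls had a median deviation of 0.15, 0.31 and 0.58 in +Fe, -0.46, -0.14 and -0.43 in -Fe and -0.20, 0.34 and -0.14 in Fe resupply. In 6 of the 8, Fe resupply replicate 2 lay above the mean of the cluster, as the +Fe libraries did, and the exceptions were Cluster_14360 and Cluster_17538, where it was low. A wider group was also examined. In value, 31 members (0.364%, against 0.790% of all features and 1.43% of the outside set) had a log2 fold change of 0.5 or more in size in -Fe against +Fe, of which 28 were lower and 20 of these did not pass the FDR limit. The 20 had median deviations of 0.0025, 0.27 and 0.66 in +Fe, -0.47, 0.038 and -0.49 in -Fe and -0.26, 0.46 and -0.22 in Fe resupply. In 18 of them +Fe replicate 3 was the highest library. Their Pearson's r with the mean pattern of the 8 falls ran from 0.62 to 0.96 with a median of 0.93, over 9 libraries and with no test, as the groups were chosen on the same contrast. Fe resupply replicate 2, high in these clusters, is also the library with the highest sum of members, and its part in the pattern was not tested.

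Several of these clusters were neighbours. Among the 28 were 5 adjacent pairs, from 79 to 683 nt apart, such as Cluster_1574 and Cluster_1575 (143 nt apart), Cluster_13599 and Cluster_13600 (111 nt) and Cluster_17537 and Cluster_17538 (683 nt). The largest fall in value without a call was that of Cluster_5398, named here after its values were seen. It stood at 5.03, 3.16 and 4.39 in +Fe, 3.34, 3.12 and 3.21 in -Fe and 3.18, 4.11 and 3.33 in Fe resupply, so that +Fe replicate 2 was at the level of -Fe while +Fe replicates 1 and 3 were high, for a fold change of -0.97 on the log2 scale. Such variation was uncommon. Over the 9 libraries the SD of a member had a median of 0.11, and 68 members (0.798%) had an SD of at least 0.25, against 219 (3.65%) of the outside set. Of the 68, 24 had an r of at least 0.9 with the mean pattern of the 8 falls, and the median of log2 mean back-transformed levels of those 24 was 7.67. These 24 include falls that define the pattern, such as Cluster_6516 (r = 0.99), and others chosen on the same contrast. Their count is thus partly set by that choice. Of the 219, which did not define the pattern, 58 had an r of at least 0.9.

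**Figure D5:**
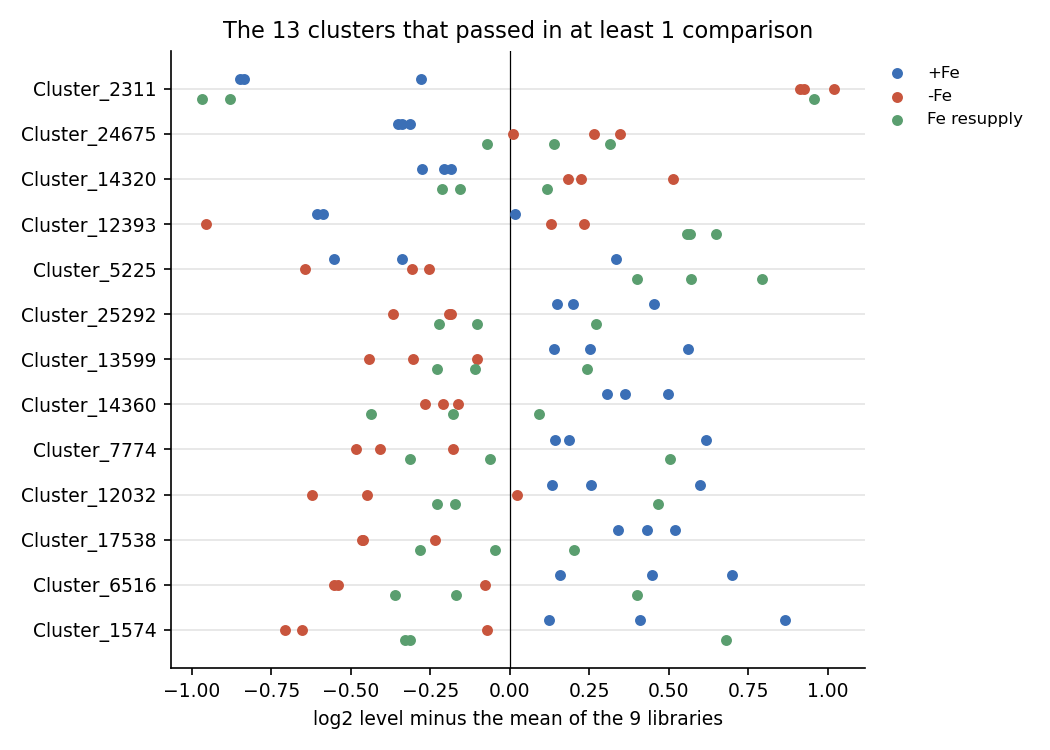
Log2 level of each of the 13 members that passed in at least 1 comparison, as the difference from its own mean over the 9 libraries; points are libraries, coloured by condition, and rows are ordered by the fold change in -Fe against +Fe. In the 8 falls the +Fe points lie right of the -Fe points, and Fe resupply points of Cluster_2311 are split, with 1 at the level of -Fe.

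Fe resupply against +Fe asks which clusters still differed after 24 hours with iron. In this comparison 3 members passed (0.0352%), against 0.127% of all features and 1 cluster of the outside set. Of these, 2 were higher after resupply, where 0.0332% of all features were, and 1 was lower, where 0.0935% were. The Fe resupply libraries lay above all +Fe libraries in 576 members (6.76%, against 5.35% of all features) and below them in 284 (3.33%, against 5.73%). Members had a median log2 fold change of 0.019 and all features one of -0.0017, and without Fe resupply replicate 2 the median of members was 0.0038. The count of 3 became 6 without Fe resupply replicate 2, 1 without -Fe replicate 3, and 0 without +Fe replicate 1 or without -Fe replicate 1. At an unadjusted p under 0.05 from limma, 303 members (3.55%, against 6.63% of all features) were found with all libraries. In the last 2 cases 345 and 298 of the 8525 were found, and the share of all features in these fits is not given here.

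Cluster_12393 rose by 0.98 against +Fe (standard error 0.21, adjusted p = 0.0889 from limma). It stood at 5.91, 5.89 and 6.51 in +Fe, 6.63, 5.54 and 6.73 in -Fe and 7.06, 7.05 and 7.14 in Fe resupply. All Fe resupply libraries lay above the other 6, and -Fe replicate 2 was the lowest library. Against -Fe the difference of 0.79 did not pass (adjusted p = 0.109 from limma). The cluster overlaps the pseudogene AT3G29647, with its RNA outside it, and its call was lost without +Fe replicate 1 or 2, -Fe replicate 1 or Fe resupply replicate 2 or 3. Cluster_5225 lies 615 nt from EMB2816 (AT2G03870), a small nuclear ribonucleoprotein gene. Its levels were 4.97, 5.64 and 4.75 in +Fe, from 4.66 to 5.05 in -Fe and 5.71, 5.87 and 6.10 in Fe resupply. All Fe resupply libraries lay above the rest, and +Fe replicate 2 came close to them. It rose by 0.77 against +Fe (adjusted p = 0.0843 from limma), a call kept under 6 of 16 alternatives. Cluster_14360, described above, fell by 0.56 against +Fe (adjusted p = 0.0624 from limma), and lost this call without any single +Fe library, -Fe replicate 1 or 3, or Fe resupply replicate 2.

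Fe resupply against -Fe asks which clusters moved within 24 hours of the return of iron. Here 2 members passed (0.0235%), against 0.528% of all features and 17 clusters of the outside set. These were 1 rise, where 0.0513% of all features rose, and 1 fall, where 0.476% fell. The Fe resupply libraries lay above all -Fe libraries in 795 members (9.33%, against 7.27% of all features) and below them in 239 (2.80%, against 8.7%). The median log2 fold change was 0.035 in members, 0.045 in the outside set and 0.0022 in all features, and without Fe resupply replicate 2 it was 0.019 in members. At an unadjusted p under 0.05 there were 449 members (5.27%), against 11.0% of all features. The count of 2 was 4 without +Fe replicate 1 or 3, 5 without Fe resupply replicate 1, and 1 without -Fe replicate 1 or Fe resupply replicate 2. The 3 comparisons share libraries and are not independent of each other.

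Cluster_5225 rose by 0.99 against -Fe (standard error 0.16, adjusted p = 0.00702 from limma) and kept this call under each of its 16 alternatives. Its -Fe libraries overlapped those of +Fe. Cluster_2311 fell by 1.25 (adjusted p = 0.0694 from limma), although Fe resupply replicate 3, at 5.86, lay among the -Fe libraries. That call was lost without any single -Fe library and without Fe resupply replicate 1 or 2.

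By group, calls were spread thinly. In -Fe against +Fe, the windows of chromosomes 1 to 5 held 2, 2, 4, 2 and 1 members that passed. Among members with no annotated gene 8 of 3987 passed, among those counted at protein-coding genes 2 of 1002 and among those counted at pseudogenes 1 of 3316. Of the 11, 9 had an RNA with a single copy in the genome, as had 61.2% of all members, and none of the 845 members with over 10 copies passed. In this comparison 0.129% of all members passed, so these counts are too small to tell the groups apart. Median log2 fold changes in -Fe against +Fe lay between -0.021 and -0.010 in the 5 windows and between -0.030 and -0.0076 in the 4 width classes. For Fe resupply against -Fe the windows had medians from 0.030 to 0.038.

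Of the 228 genes that the study lists as changed in their mRNA by iron deficiency, 4 were overlapped by members. How many listed genes lie in the windows, and how many clusters outside overlap one, is not given here, so this is a description. The overlap involved 7 members, and none of them passed in any comparison. In -Fe against +Fe 0.129% of all members passed, so no call among 7 says little. Cluster_2063 overlaps an exon of SAPX (AT4G08390), a chloroplast ascorbate peroxidase that removes hydrogen peroxide and is listed as lowered. Its levels were 6.74, 6.96 and 6.79 in +Fe, 6.94, 6.97 and 6.96 in -Fe and 6.83, 6.94 and 6.90 in Fe resupply. The -Fe libraries overlapped those of +Fe and stood just above those of Fe resupply, and the log2 fold change in -Fe against +Fe was 0.13 (adjusted p = 0.810 from limma). Cluster_7281, Cluster_7282 and Cluster_7283 overlap the pseudogene AT2G14230, listed as raised. The leading RNAs of Cluster_7281 and Cluster_7283 lie outside that pseudogene. Cluster_7281 ranged from 5.57 to 5.69 in +Fe, 5.52 to 5.93 in -Fe and 5.91 to 6.08 in Fe resupply, with a difference of 0.35 between Fe resupply and +Fe that did not pass (adjusted p = 0.416 from limma). Cluster_7283 ranged from 3.95 to 4.34 over the 9 libraries, and Cluster_7282 had a log2 level of 2.48. Cluster_7700 overlaps only the edge of HB1 (AT2G16060), which encodes a nonsymbiotic hemoglobin and is listed as raised. The interval of the cluster ends at position 6982534, the gene starts at 6982531, and the leading RNA lies outside the gene. Levels of Cluster_7700 ran from 3.36 to 3.62 over the 9 libraries. At AT5G39150, also listed as raised, Cluster_20068 and Cluster_20069 had log2 levels of 3.31 and 2.83, with fold changes in -Fe against +Fe of 0.0066 and -0.032.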

How the data were processed

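The authors removed adapters with cutadapt and aligned, placed and quantified small RNAs of 17 to 29 nt with ShortStack, and per the labels the build is TAIR10. The authors deposited log2 normalized values, 1 per feature and library. Their transformation is not named in the sources used here, and fold changes of low clusters may be understated by it. Sequencing depth is unknown, so no counting interval was computed. Columns were given to replicates by the number in their headers.

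Members and lists were chosen with earlier results of these data known. Named clusters are the 6 highest and the highest of each window, all that passed, the 3 most shared RNAs, the widest, the edge clusters, those at iron-listed genes and those most like the largest rise; Cluster_5398 and the members past the fold limit without a call were added after their values were seen. Leading RNAs were searched exactly in TAIR10.1, and 99.0% of members had theirs in their own interval. Genes are from the RefSeq annotation of TAIR10.1, with an overlap of at least 1 nt on either strand.

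Conditions were compared by limma 3.58.1 (R 4.3.3) in 1 fit over all 9 libraries, with the variance prior following mean level and p adjusted by Benjamini-Hochberg over 33159 features, after leaving out 12 with a single value in all libraries. The limits (FDR under 0.1, log2 fold change of 0.5) are those the authors gave for DESeq2, which needs counts and was not run. The step was tested on simulated data, with independent noise and changes larger than those of most members that passed. That test does not bear on calls of smaller changes or on members that vary together. Sets of members were described by counts and medians without a test. The alternatives were low-value filters, a pseudocount, other scalings, fits with 2 conditions, no trend, other limits, narrower windows, single-copy members, a replicate block and each library left out. The p-values measure the spread between these replicates, and how their plants were grown apart is not stated in the sources used here.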

Additional observations from a re-analysis of the deposited data

How the results depend on the processing

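The count of members that passed in -Fe against +Fe (11) was 1 with a minimum mean of 50, 29 with only the 2 conditions compared, 7 at an FDR under 0.05, 7 in windows narrowed by 1 Mb, and from 3 to 31 when each library was left out. The replicate block gave 27. In Fe resupply against +Fe (3), it was 1 with a minimum mean of 10, with quantile normalization, with only the 2 conditions compared and without a trend, 0 with a minimum mean of 50 and at an FDR under 0.05, and from 0 to 6 when each library was left out. In Fe resupply against -Fe (2), it was 0 with a minimum mean of 50 and in narrowed windows, 1 without a trend and at an FDR under 0.05, 4 with median centring and with only the 2 conditions compared, 5 with the replicate block, 11 with no fold limit, and from 1 to 5 when each library was left out. Where limma found 0 with a minimum mean of 50, 71 and 128 of the 1930 members tested had an unadjusted p under 0.05. In narrowed windows 298 of 6029 had, and at an FDR under 0.05, 303 of 8525 had. Shares of all features under these settings are not given here, so whether members or the whole set of features moved cannot be told.

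The median log2 fold change of members was -0.030 in -Fe against +Fe with a minimum mean of 50, 0.032 in Fe resupply against +Fe with median centring, and 0.058 and 0.052 in Fe resupply against -Fe under these settings. Leaving out each library gave medians from -0.019 to -0.0096, from 0.0038 to 0.030 and from 0.019 to 0.045. No median changed sign. The summed level moved by less than the SD of libraries pooled over the 3 conditions (0.035), which the Fe resupply libraries raise. Its difference in -Fe against +Fe (-0.042) was -0.051 with a minimum mean of 50 and -0.031 with quantile normalization, shifts above the SD within either condition, and in Fe resupply against +Fe it went from 0.022 to -0.011 without Fe resupply replicate 2. Median centring left 3 higher and 9 lower members in -Fe against +Fe, against 3 and 8.

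Of 16 calls of single members, 4 held under every alternative run, 12 did not, and 0 changed direction. The 4 were those of Cluster_2311, Cluster_14360 and Cluster_17538 in -Fe against +Fe and of Cluster_5225 in Fe resupply against -Fe. Their mean back-transformed values, from 16.5 to 42.0, lay below 50, so the filter with a minimum mean of 50 was not run on them. Cluster_1574, Cluster_12032, Cluster_13599, Cluster_25292 and Cluster_12393 lost theirs with a minimum mean of 50, under which fewer features are tested. With quantile normalization, and also without a trend, Cluster_1574, Cluster_7774 and Cluster_12032 lost their calls in -Fe against +Fe. Lower members there numbered 5 under each setting, against 8. The calls of Cluster_12393 and Cluster_5225 in Fe resupply against +Fe and of Cluster_2311 in Fe resupply against -Fe were lost under both settings too. Samples with the same replicate number did not deviate together (correlations from -0.059 to 0.10), so the numbers were not read as pairs. Replicates of 3, unknown depth and reads with several matches limit what can be said of any one member.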
